A study of Nicotiana tabacum with 9 samples.

Results

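Rubisco activase 1 (Nitab4.5_0004475g0020), pyruvate kinase isozyme A (Nitab4.5_0000772g0060) and glutamine synthetase (Nitab4.5_0001650g0160) are described here in leaves of cigar tobacco at 3 light intensities. They were chosen by gene identifier and stand for carbon fixation, glycolysis and ammonium assimilation, and they are 3 of the 123 genes in the table analysed. The plants were seedlings of Nicotiana tabacum, cultivar H382, an allotetraploid crop plant. Leaf RNA was sequenced from plants kept at 50, 100 or 200 µmol m-2 s-1. Each intensity had 3 biological replicates, which makes 9 libraries. No transgene, mutation or other treatment is named for any group. Light intensity is the only labelled difference between the groups.

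Leaf cells fix carbon dioxide with Rubisco, an enzyme that its own sugar substrate and related sugar phosphates can block. Rubisco activase uses ATP to remove these bound sugars and so keeps Rubisco active in the light. Pyruvate kinase makes pyruvate and ATP from phosphoenolpyruvate at the end of glycolysis, and in plastids the pyruvate can enter fatty acid synthesis. Glutamine synthetase joins ammonium to glutamate with ATP, the entry step of inorganic nitrogen into amino acids, and it also recovers the ammonium released in photorespiration.

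The gene listed as Rubisco activase 1 lies on the minus strand of chromosome Nt05, from 14483247 to 14485034, with a listed length of 1212 bases. The pyruvate kinase gene lies on the plus strand of Nt19, from 90843089 to 90846991, with a listed length of 1746 bases. The glutamine synthetase gene lies on the minus strand of Nt13, from 137261333 to 137266592, with a listed length of 960 bases. No source used here names the genome build of these coordinates. All 123 listed lengths are multiples of 3, so they are coding lengths without untranslated regions. Names come from protein matches in the authors' deposited table, to Nicotiana tabacum for the activase, Ricinus communis for the kinase and Nicotiana plumbaginifolia for the synthetase. Its KEGG entry labels the synthetase GS1, the usual name of the cytosolic form in plants, and names a chloroplast form for the kinase. The location of neither protein was measured. Of the 56 Gene Ontology terms listed for the activase, 0 name carbon fixation, Rubisco or photosynthesis, and some name DNA repair and DNA binding. An allotetraploid genome holds near-identical copies of many genes, between which short reads may be shared, so the level of each gene may include reads of a related copy or lack reads lost to one.

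Library totals ranged from 12395758 to 16603534 reads, and the table held 4.63% to 7.37% of them. The 3 genes had between 231 and 2162 reads in a library. Levels are given as CPM, read counts scaled to a common effective library size (counts per 1000000) made from the authors' size factors. The ratio of effective size to library total was 0.917 to 0.970 at 50, 0.987 to 1.01 at 100 and 1.04 to 1.09 at 200 µmol m-2 s-1, so the scaling itself moved with light. The table held 16 genes of antenna proteins and photosystem subunits, which mark green leaf cells. They summed to 42806 to 51617 CPM at 50, 34560 to 38682 at 100 and 22422 to 28162 at 200. No Rubisco small subunit gene was among those 16. The table also held 1 gene on the list for root and nicotine synthesis (Nitab4.5_0000009g0310), 1 on the list for dividing cells (Nitab4.5_0001951g0080) and 0 on the list for glandular trichomes. The dividing-cell list matched product names of cyclins, histones, tubulins and expansins. The authors marked 122 of the 123 genes as changed between 50 and 200, so markers present or absent here cannot check the tissue. The root and nicotine gene had 0.606 to 1.32 CPM at 50, 1.18 to 2.0 at 100 and 3.98 to 7.5 at 200. The dividing-cell gene had 79.1 to 126.7 CPM at 50, 41.6 to 51.8 at 100 and 28.6 to 38.2 at 200. The part of these marker changes in the results below was not tested, and fewer cells of a type and less RNA per cell cannot be told apart in whole leaves.

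Across the full light range, 2 of the 3 genes were higher at 200 than at 50 µmol m-2 s-1 and 1 was lower. Pyruvate kinase rose 2.57-fold, glutamine synthetase rose 1.58-fold and Rubisco activase fell 1.62-fold. Among all 123 genes 47.2% were called higher and 52% lower in this comparison. For 47.2% of genes all libraries at 200 lay above all libraries at 50, and for 52% all lay below. The authors' deposited table marks 122 of the 123 as changed between these same samples. That 3 of 3 were called, without overlap between 50 and 200, is therefore not a result about these genes. The size and direction of each change carry the description. Since the genes were marked on these same samples, sizes, intervals and adjusted p-values from 50 to 200 may overstate the changes. The same holds for the trend over the 3 intensities. Calls rest on edgeR's quasi-likelihood test, two-sided, with p-values adjusted by Benjamini and Hochberg's method over the whole table and a threshold of 0.05.

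**Figure D1:**
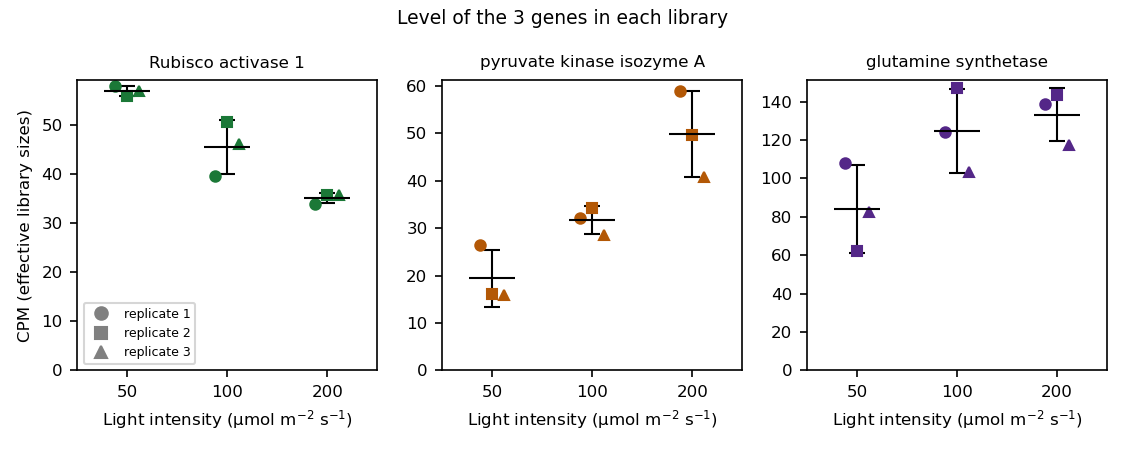
Levels of the 3 genes in CPM (vertical axis, from 0) at each light intensity in µmol m-2 s-1 (horizontal axis). Points are the 9 libraries, with a symbol for each replicate number, and black marks are the mean ± SD of 3 libraries. Rubisco activase steps down without overlap between groups, from 56.0 to 58.1 CPM at 50 to 34.0 to 35.8 CPM at 200. Pyruvate kinase steps up, and glutamine synthetase overlaps between 100 and 200.

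Rubisco activase 1 stood at 58.1, 56.0 and 56.9 CPM in the libraries at 50 µmol m-2 s-1. At 100 it had 39.7, 50.7 and 46.3 CPM. At 200 it had 34.0, 35.8 and 35.8 CPM. The groups do not overlap at any pair of intensities, and the libraries at 100 are spread widest. The mean level was 57.0 ± 1.02, 45.6 ± 5.54 and 35.2 ± 1.04 CPM (SD, n = 3). From 50 to 200 the log2 change was -0.70 ± 0.14 (SE; edgeR, adjusted p = 0.000387), with a 95% interval of -1.0 to -0.40. It was the 54th largest fall among the 64 genes that fell. The median log2 change of the table was -0.58, with 59 genes higher and 64 lower. The authors' deposited table gives a log2 change of -0.70 with an adjusted p of 0.00487, adjusted over more genes than the table holds. Among the scalings tried, TMM ended the call, at a log2 change of -0.26 (edgeR, adjusted p = 0.0787). TMM, like the RLE factors used below, assumes that the majority of genes do not change, whereas the authors marked 122 of the 123. TMM raised the median change of all genes by 0.43. Setting the median level of the table equal in every library lowered that median by 0.50 and gave the activase a log2 change of -1.20. Its adjusted p over all alternatives lay between 1.27e-05 and 0.0787.

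The spread of Rubisco activase between replicates was small. Its coefficient of variation was 1.80% at 50, 12.2% at 100 and 2.96% at 200, whereas counting error alone at these depths would give 3.60%, 3.83% and 4.22%. At 50 and 200 the 3 libraries thus lay closer together than counting error under this scaling. On library totals the level at 200 was 37.2 ± 1.88 CPM (SD), a spread above counting error. An SD from 3 libraries is itself imprecise. Its mean over the groups, 5.64%, was the 4th lowest of the 123 genes, whose median was 13.0%. By the same measure pyruvate kinase had 19.4% and glutamine synthetase 18.4%, both above that median.

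Pyruvate kinase isozyme A stood at 26.4, 16.0 and 15.9 CPM in the libraries at 50 µmol m-2 s-1. At 100 it had 32.2, 34.3 and 28.6 CPM. At 200 it had 59.0, 49.6 and 40.8 CPM. Every library was above every library of the next lower intensity, and replicate 1 at 50 stood well above the other libraries of its group. The mean level was 19.5 ± 6.01, 31.7 ± 2.89 and 49.8 ± 9.08 CPM (SD, n = 3). From 50 to 200 the log2 change was 1.36 ± 0.22 (SE; edgeR, adjusted p = 7.66e-05), with a 95% interval of 0.89 to 1.83. This was the 26th largest rise among the 59 genes that rose. The authors' deposited table gives a log2 change of 1.35 with an adjusted p of 2.18e-05. The rise was called under every scaling and with each library left out. Log2 changes lay between 0.86 and 1.79, with an adjusted p of at most 0.00155 in edgeR or DESeq2. The smallest of these changes came with the equal median level and the largest with TMM. Over the table, 122 of the 123 genes were called with each library left out, and 105 to 122 under the scalings. Keeping the call is therefore not a trait of the kinase.

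Glutamine synthetase stood at 108.0, 62.0 and 82.3 CPM in the libraries at 50 µmol m-2 s-1. At 100 it had 124.2, 146.9 and 103.1 CPM. At 200 it had 138.6, 143.4 and 117.5 CPM. The libraries at 200 were all above those at 50, but replicate 3 at 100 lay below replicate 1 at 50, and the groups at 100 and 200 overlap. The mean level was 84.1 ± 23.1, 124.7 ± 21.9 and 133.1 ± 13.8 CPM (SD, n = 3). From 50 to 200 the log2 change was 0.66 ± 0.21 (SE; edgeR, adjusted p = 0.00728), with a 95% interval of 0.22 to 1.11. This was the 52nd largest rise among the 59 genes that rose, and by p the gene stood 122nd of 123. The authors' deposited table gives a log2 change of 0.66 with an adjusted p of 0.0192. With the equal median level the log2 change was 0.17 and the call was lost (edgeR, adjusted p = 0.335), and over all alternatives the adjusted p lay between 0.000209 and 0.335. TMM gave a log2 change of 1.10.

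**Figure D2:**
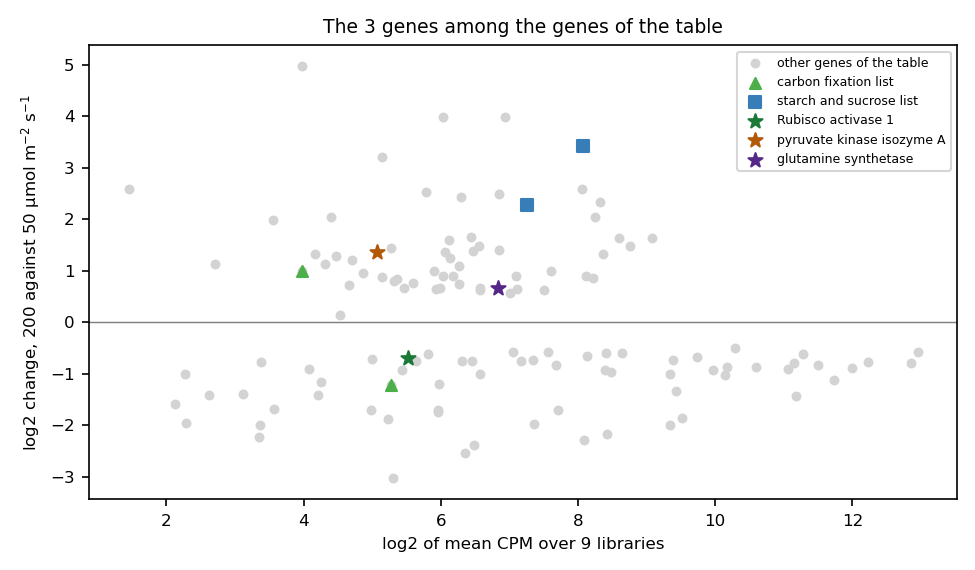
Log2 change from 50 to 200 µmol m-2 s-1 (vertical axis) against log2 of the mean CPM over 9 libraries (horizontal axis) for the 123 genes. Stars are the 3 genes, triangles and squares the other genes of the carbon fixation and the starch and sucrose lists. Pyruvate kinase lies at 1.36 and glutamine synthetase at 0.66 on the vertical axis, among the genes that rose, and Rubisco activase at -0.70 among those that fell.

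The first doubling of light, from 50 to 100 µmol m-2 s-1, was accompanied by a rise of pyruvate kinase and glutamine synthetase and a fall of Rubisco activase. Over all genes 42.3% were called higher, 40.7% lower and 82.9% in either direction, so calls of 2 genes higher and 1 lower are near what the whole table showed. The libraries of 39.8% of genes were all higher and those of 43.1% all lower, without overlap. The log2 change was 0.71 ± 0.22 (SE) for pyruvate kinase (edgeR, adjusted p = 0.0120) and 0.57 ± 0.21 for glutamine synthetase (edgeR, adjusted p = 0.0247). For the activase it was -0.32 ± 0.14 (SE; edgeR, adjusted p = 0.0447), with a 95% interval of -0.62 to -0.02. Of the 3 genes, the authors marked only the kinase in this comparison (adjusted p = 0.0418), against 44 of all 123 genes. A mark on 1 of 3 is therefore near the share of the whole table. Their deposited adjusted p was 0.391 for the synthetase and 0.692 for the activase.

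The activase call in the first doubling was not stable. It was lost with library totals (edgeR, adjusted p = 0.0746), RLE factors (0.0644), TMM factors (0.797) and DESeq2 (0.0524). It was also lost without any one of 7 libraries, namely replicates 1, 2 and 3 at 50 (edgeR, adjusted p = 0.0764, 0.0937 and 0.0696), replicates 1 and 3 at 100 (0.166 and 0.0829) and replicates 1 and 2 at 200 (0.0615 and 0.0666). Its direction was the same under all alternatives, with log2 changes from -0.60 to -0.041. The call of glutamine synthetase was lost without replicate 2 at 50 (log2 change 0.39, adjusted p = 0.0996, edgeR), replicate 3 at 50 (0.55, adjusted p = 0.0503) or replicate 2 at 100 (0.44, adjusted p = 0.0889). The equal median level ended the calls of the synthetase (edgeR, adjusted p = 0.107) and of the kinase (adjusted p = 0.0609), while no library left out ended that of the kinase. Without replicate 1 at 50 the change of the kinase was 0.99.

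In the second doubling, from 100 to 200 µmol m-2 s-1, pyruvate kinase rose again and Rubisco activase fell again, whereas glutamine synthetase was not called. Of all genes 21.1% were called higher, 39% lower and 60.2% in either direction. The libraries of 29.3% of genes were all higher and those of 41.5% all lower, without overlap. The log2 change of pyruvate kinase was 0.65 ± 0.21 (SE; edgeR, adjusted p = 0.0240), the 17th largest rise among the 57 genes that rose. That of the activase was -0.37 ± 0.14 (SE; edgeR, adjusted p = 0.0350). For glutamine synthetase it was 0.09 ± 0.21 (SE; edgeR, adjusted p = 0.681), and its 95% interval of -0.35 to 0.54 spans both directions. Here the authors marked 0 of the 3, against 39 of all 123 genes, so most genes went without a mark. Their deposited adjusted p was 0.0665 for the kinase, 0.461 for the activase and 1.0 for the synthetase.

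Both calls of the second doubling rested on the choice of libraries and scaling. The kinase call was lost without replicate 3 at 100 (log2 change 0.58, adjusted p = 0.0865, edgeR) or replicate 1 at 200 (0.51, adjusted p = 0.0938) and with the equal median level (adjusted p = 0.101). The activase call was lost with library totals (edgeR, adjusted p = 0.0598), RLE factors (0.289) and TMM factors (0.150). It was also lost without replicate 2 at 50 (edgeR, adjusted p = 0.0555), replicates 2 and 3 at 100 (0.116 and 0.0947) or replicates 1, 2 and 3 at 200 (0.108, 0.0802 and 0.0572). Over all alternatives the activase change lay between -0.60 and -0.15. Without replicate 3 at 100 the change of glutamine synthetase was -0.026, and with the equal median level it was -0.14.

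**Figure D3:**
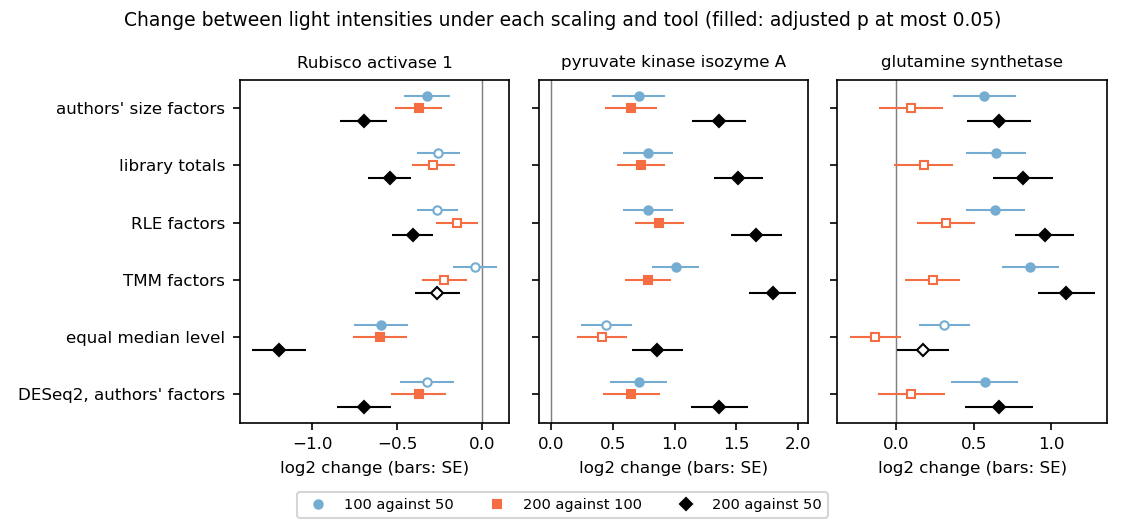
Log2 change (horizontal axis, bars ± SE) of each gene for 3 pairs of light intensities, under 5 library scalings and with DESeq2 (vertical axis). Filled symbols have an adjusted p of at most 0.05. The change of pyruvate kinase from 50 to 200 is filled in every line, that of Rubisco activase is open with TMM (-0.26), and that of glutamine synthetase is open with the equal median level (0.17).

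Over the 3 intensities, the slope per doubling of light was 0.68 ± 0.11 (SE) on the log2 scale for pyruvate kinase (edgeR, adjusted p = 9.34e-05). For glutamine synthetase it was 0.33 ± 0.11 (edgeR, adjusted p = 0.0131) and for Rubisco activase -0.35 ± 0.07 (edgeR, adjusted p = 0.000338). Trends were called upward in 47.2% and downward in 52% of the table's genes. The trend of glutamine synthetase was lost without replicate 2 at 50 (slope 0.23, adjusted p = 0.0502, edgeR) and with the equal median level (slope 0.09, adjusted p = 0.390), and that of the activase was lost with TMM (slope -0.13, adjusted p = 0.116).

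Whether the doublings differed in size was tested by the step difference, which subtracts the log2 change of the first doubling from that of the second. It was called for 0 of the 3 genes in edgeR and in DESeq2, with 0 of 3 at an unadjusted p under 0.05 in either tool. Over all genes 2.44% were called, each downward. The step difference was -0.48 ± 0.35 (SE) for glutamine synthetase, with a 95% interval of -1.24 to 0.29 (edgeR, adjusted p = 0.552). So although the first doubling changed it by 0.57 and the second by 0.09, the 95% interval of the difference includes 0. Without replicate 1 at 50 it was -0.70, with an unadjusted p of 0.0469 and an adjusted p of 0.251 (edgeR). For pyruvate kinase the step difference was -0.06 (95% interval -0.86 to 0.74) and for the activase -0.05 (95% interval -0.57 to 0.47). These intervals leave room for unequal doublings of either gene.

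Levels of different genes can be compared per base of coding length, for which the deposited FPKM serves. At 50 µmol m-2 s-1 glutamine synthetase had 62.3 to 103.1 FPKM, the activase 43.9 to 45.6 and pyruvate kinase 8.86 to 13.9, so the order of the genes was the same in every library. At 100 the synthetase had 106.7 to 151.1 FPKM, the activase 33.0 to 41.3 and the kinase 16.3 to 19.4. At 200 the synthetase remained highest, with 133.5 to 155.3 FPKM. The other genes overlapped at 200, where the activase had 29.1 to 32.2 and the kinase 25.5 to 35.1 FPKM. By mean FPKM over the 9 libraries the synthetase stood 51st, the activase 87th and the kinase 99th of 123.

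The ratio of these genes within a library does not depend on how the library is scaled, and is given as reads per base of coding length of one gene over the other. The ratio of pyruvate kinase to Rubisco activase was 0.316, 0.199 and 0.194 in the libraries at 50 µmol m-2 s-1. It was 0.564, 0.470 and 0.429 at 100, and 1.20, 0.963 and 0.792 at 200. No group overlaps another, and the mean log2 ratio rose by 1.07 from 50 to 100 and by 2.08 from 50 to 200, a 4.22-fold shift. At 200 the kinase and the activase were at about the same level per base.

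Glutamine synthetase over Rubisco activase gave ratios of 2.35, 1.40 and 1.83 at 50 µmol m-2 s-1. At 100 the ratios were 3.95, 3.66 and 2.81, and at 200 they were 5.15, 5.06 and 4.14. Again the groups did not overlap, and the shift from 50 to 200 was 2.62-fold. The ratio of pyruvate kinase to glutamine synthetase was 0.106 to 0.142 at 50 and 0.129 to 0.153 at 100, where the groups overlap. It was higher in each library at 200, at 0.190 to 0.234, a 1.61-fold shift from 50. The activase thus fell relative to both other genes at each doubling, whereas the kinase separated from the synthetase only between 100 and 200. These ratios are given as descriptions, with no test.

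**Figure D4:**
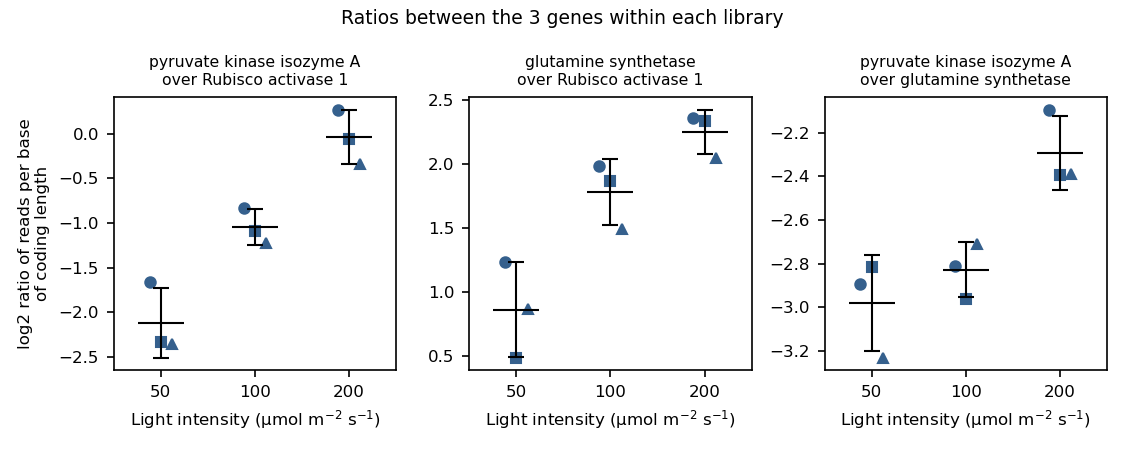
Log2 ratio of reads per base of coding length between pairs of the 3 genes (vertical axis) at each light intensity in µmol m-2 s-1 (horizontal axis). Points are the libraries, with symbols for replicate numbers as circles, squares and triangles for 1, 2 and 3, and black marks are the mean ± SD of 3. The ratios over Rubisco activase step up at each intensity, and pyruvate kinase over glutamine synthetase is highest at 200.

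Within groups, pyruvate kinase and glutamine synthetase lay on the same side of their group means in 8 of 9 libraries. Replicate 1 at 50 was the highest of its group for both, at a log2 deviation of 0.48 for the kinase and 0.40 for the synthetase. The activase deviated there by 0.03. The activase was on the same side as the kinase in 5 of 9 libraries and as the synthetase in 4 of 9. All 3 genes share each library's scaling, and the 3 deviations of a group sum to 0, so these counts are descriptive.

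Other genes of the same pathways were looked for by product name. The carbon fixation list held 2 more genes, the starch and sucrose list 2, and the lists for glycolysis, nitrogen assimilation, photorespiration and the citrate cycle and respiration 0 more. From 50 to 200, 3 of these 4 rose and 1 fell, in a table with 99.2% of genes called in one direction or the other. Calvin cycle protein CP12-3 (Nitab4.5_0009514g0050), of a family of small proteins that bind Calvin cycle enzymes in the dark, stood at 69.1, 54.8 and 48.7 CPM at 50. At 100 it had 37.2, 31.8 and 34.0 CPM, and at 200 it had 20.7, 27.1 and 25.9. Its groups did not overlap, and the log2 change from 50 to 200 was -1.22 ± 0.17 (SE; edgeR, adjusted p = 3.42e-05), in the direction of the activase. With log2 changes of -0.74 and -0.48 it was called in both doublings.

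Glyceraldehyde-3-phosphate dehydrogenase GAPCP2 (Nitab4.5_0003777g0020) was matched by the carbon fixation list, but in Arabidopsis the enzyme of this name is a plastid enzyme of glycolysis. It had 10.7, 9.63 and 11.2 CPM at 50, 16.0, 17.3 and 13.5 CPM at 100, and 20.3, 20.8 and 21.5 CPM at 200. All its groups were apart, and its log2 change of 0.99 ± 0.17 (SE; edgeR, adjusted p = 0.000116) had the direction of pyruvate kinase. Each doubling was called, at 0.57 and 0.42. GAPCP2 and the kinase were thus higher with more light, while the activase and CP12-3 were lower. All of these genes, rising and falling, carry chloroplast protein names, but how common such names are in the table was not counted.

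Both genes of the starch and sucrose list had larger log2 changes than any of the 3, a comparison of sizes that was not tested. Phosphoglucan phosphatase LSF1, described below and not matched by that list, had a log2 change of 0.76. The large subunit of glucose-1-phosphate adenylyltransferase (Nitab4.5_0000308g0330), which makes the glucose donor of starch, went from 41.1 to 58.0 CPM at 50 to 429.8 to 607.6 CPM at 200, with a log2 change of 3.42 ± 0.21 (SE). Granule-bound starch synthase 2 (Nitab4.5_0002980g0050) went from 45.7 to 62.5 CPM at 50 to 179.3 to 293.6 CPM at 200, with a log2 change of 2.28 ± 0.24 (SE). The log2 change of pyruvate kinase, 1.36, was the largest of the 3 and below both.

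The genes of most similar pattern were found by the root mean square difference of log2 CPM over the 9 libraries, after each gene was centred on its own mean. This measure is not moved by library scaling. Nearest to Rubisco activase among genes with a product name were plastid transcriptionally active 16 (Nitab4.5_0000102g0310; 0.09), which in Arabidopsis is bound to plastid DNA, zeaxanthin epoxidase (Nitab4.5_0002016g0120; 0.11), which turns zeaxanthin into violaxanthin, and photosystem I subunit XI (Nitab4.5_0001348g0130; 0.12). The median difference of the activase from the 122 other genes was 0.57. All 3 of its neighbours carry chloroplast protein names. How common such names are was not counted, and the table held 16 antenna and photosystem genes. The names therefore cannot be read as particular to these neighbours. Their mean levels at 50 were 833.6, 1064 and 2864 CPM, far above the 57.0 CPM of the activase.

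Nearest to pyruvate kinase were the cotransporter BASS1 (Nitab4.5_0000667g0060; 0.18), of a family of plastid envelope carriers, a flavone 3'-O-methyltransferase (Nitab4.5_0000725g0060; 0.19) and a gene matched to beta-glucosidase BoGH3B (Nitab4.5_0001505g0020; 0.20). The median difference of the kinase from the other genes was 0.85. Chosen for likeness over these same libraries, the neighbours have similar changes by construction. Their log2 changes from 50 to 200 were 1.22, 1.44 and 1.39, against 1.36 for the kinase. Their levels at 50 were 15.2, 20.1 and 48.2 CPM.

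Nearest to glutamine synthetase among genes with a product name were betaine aldehyde dehydrogenase 1 (Nitab4.5_0002101g0060; 0.17), which makes glycine betaine, phosphoglucan phosphatase LSF1 (Nitab4.5_0004348g0040; 0.18), which in Arabidopsis takes part in starch breakdown, and a G3BP-like protein (Nitab4.5_0000355g0030; 0.19). The median difference of the synthetase from the other genes was 0.64. Chosen in the same way, the dehydrogenase had log2 changes of 0.82 from 50 to 100 and 0.08 from 100 to 200. Those of the synthetase were 0.57 and 0.09. Among the 3 genes themselves, the kinase and the synthetase differed by 0.33, the synthetase and the activase by 0.62, and the kinase and the activase by 0.89. The synthetase was the 23rd nearest of 122 genes to the kinase, and the activase was the 70th.

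**Figure D5:**
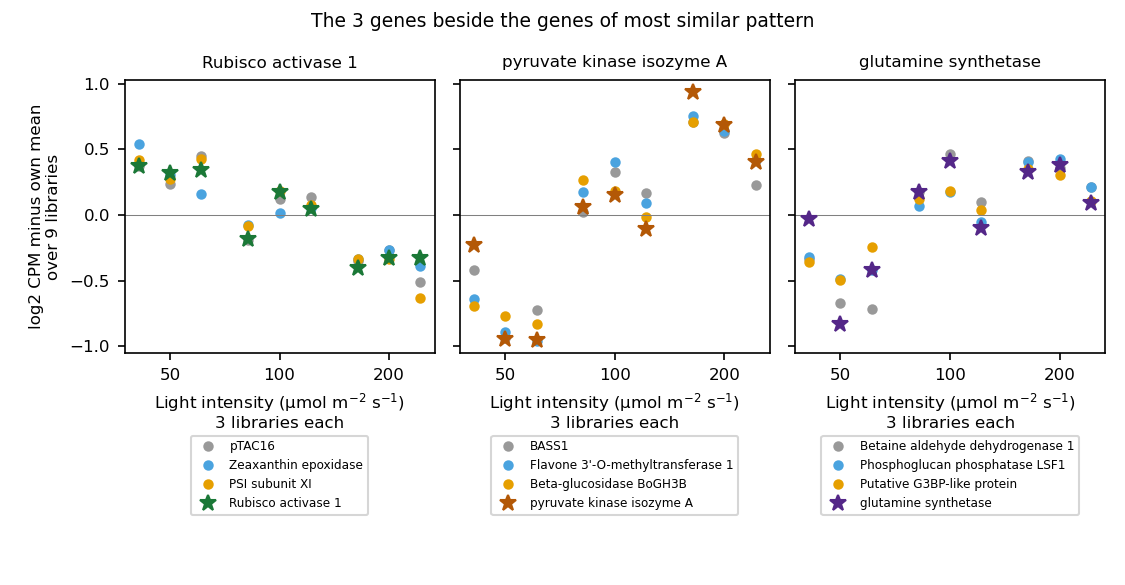
Log2 CPM of each gene minus its own mean over 9 libraries (vertical axis), with the libraries grouped by light intensity in µmol m-2 s-1 (horizontal axis) and replicates 1 to 3 from left to right. Stars are the named gene and circles the 3 genes of most similar pattern with a product name. The circles follow Rubisco activase within 0.09 to 0.12 (root mean square), and the star of glutamine synthetase stands apart from its circles in replicates 1 and 2 at 50.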

How the data were processed

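The authors deposited raw read counts and FPKM of 123 genes for each library, per the file headers. For each comparison they also deposited normalised mean counts of both groups, a log2 fold change, a p-value and an adjusted p, per the file headers. CASAVA 1.7, HISAT and HTSeq are named in the submitters' processing notes. Per the labels' protocols the library kit was NEBNext Ultra RNA, which does not mark strand, so reads of overlapping antisense genes cannot be told apart. No source used here names the genome build.

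Size factors were recovered from the authors' mean normalised counts (largest relative error 4.98e-10), combined over the pairs (departing by at most 0.188%), and library totals from counts, FPKM and length. The test was edgeR 4.0.16 (R 4.3.3, glmQLFit and glmQLFTest) over the 9 libraries, with light group (or log2 light intensity for the trend) as sole term, after filterByExpr, which kept 123 genes. P-values were adjusted over the 123 genes, whereas the authors' adjustment covered at least 30470. Standard errors are the log2 change over the square root of F. Alternatives were 5 scalings, DESeq2 1.42.0, low-count filters, a replicate block and each library left out. The edgeR step was tested on simulated data.

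The 3 genes, the gene lists and the named genes (the 3, all pathway list matches, and the 3 nearest by pattern) were chosen with earlier results of these data known. The authors' selection on the same samples precedes any test here. Chi-square per degree of freedom between libraries of a group was 23.6 to 102.4, so none was counted as a duplicate. The reference gene table matched 0 of the 123 identifiers, and no sequences were used.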

Additional observations from a re-analysis of the deposited data

How the results depend on the processing

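Of 270 log2 changes of the 3 genes under 18 alternatives, 222 kept direction and call, 37 lost the call and 11 changed sign, all 11 for values not called. The 270 include values with no call to lose, namely the step differences and the second doubling of the synthetase. The 222 are therefore not a measure of how stable the calls were. On library totals the activase had 54.2 CPM at 50 and 37.2 at 200. Median centring gave the same values as RLE, and leaving out the filter repeated the main fit, since the filter had kept every gene. The equal median level was chosen after seeing the data. Where a call ended, the cause was not tested. Depth, at 231 to 2162 reads, gives counting errors of 2.15% to 6.58%, mostly below the spread between libraries.

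Replicate numbers are not labelled as shared batches, and the main test did not pair the samples by them. Of same-number pairs, 4 of 9 had correlated deviations over 0.1 (r from -0.44 to 0.55), and 6 of 18 best matches were of the same number. Deviations within a group sum to 0, so this check cannot show whether libraries of the same number share a batch. The replicate block gave the activase -0.33 from 50 to 100 and -0.37 from 100 to 200, both calls lost, and raised the table's step calls from 3 to 6.

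Log2 changes of the activase with the call lost were, from 50 to 200, -0.26 with TMM, from 50 to 100 -0.041 with TMM, -0.26 with RLE and median centring, -0.26 with library totals and -0.32 with DESeq2, and from 100 to 200 -0.22 with TMM, -0.15 with RLE and median centring and -0.29 with library totals. Its trend with TMM was -0.13. With the equal median level, the kinase had 0.45 and 0.41 in the doublings, and the synthetase 0.17 over the range, 0.31 and -0.14 in the doublings and 0.086 per doubling. The step difference changed sign with RLE and median centring to 0.12 for the activase and 0.090 for the kinase.

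Without 1 library, the activase lay between -0.41 and -0.23 for 50 to 100, -0.46 and -0.29 for 100 to 200, and -0.23 and 0.12 in the step difference. The kinase lay between 0.51 and 0.77 in the second doubling and -0.34 and 0.065 in the step difference. The synthetase lay between 0.39 and 0.79 for 50 to 100, -0.026 and 0.23 for 100 to 200, -0.72 and -0.21 in the step difference, and 0.23 and 0.41 in the trend. Calls over the table in the second doubling, 74, lay between 40 (without light 100 replicate 3) and 80. Step calls lay between 1 and 14 without 1 library, and numbered 23 with TMM, 5 with library totals and 9 with DESeq2.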
